A study of Homo sapiens with 8 samples.

Results

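The 1128 regions described here lie inside protein-coding genes and held a peak of tagged RUNX1 in every one of 6 CUT&RUN peak lists. They were selected by those calls. Peaks on chromosomes 1 to 22 and X that overlapped by 1 bp or more were merged into 33402 regions, of which 3288 held a peak of all 6 lists. Of these, 1128 had their midpoint inside a protein-coding gene on hg38 and more than 1 kb from either end of any protein-coding gene, 1386 lay within 1 kb of a gene end and 774 lay between genes. The place of a region was read from its midpoint. By mean summit, the average of its highest points in the 6 lists, 16 of the 1128 lay within 1 kb of a gene end, and for 2 of these, in RASGRP2 and TRAM2, the mean summit lay outside the gene. The calls chose the regions, so their presence in the lists is given as a description, without a test.

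The cells were HEL, a human erythroleukemia line that carries features of red cell precursors and of megakaryocytes, the bone marrow cells that shed platelets. They were transduced with an empty vector (EV) or with HA-tagged RUNX1 in 1 of 3 forms, namely wild type (WT), RUNX1-4A and RUNX1-4D, and selected in puromycin at 2 µg/ml. Per the labels, 2 biological replicates of 500000 cells were profiled for each of these 4 lines, giving 8 libraries, and the EV line served as the background from which peaks were called. Lists exist here for WT, 4A and 4D, replicates 1 and 2. As such mutants are usually named, 4A carries alanine in place of phosphorylated serines or threonines and 4D carries aspartate, whose charge resembles a phosphate. In CUT&RUN an antibody, here against HA, tethers a nuclease that cuts the DNA next to the bound protein. The antibody reads the transduced protein alone, so RUNX1 made by HEL cells themselves was present in all lines and not measured. No RNA was measured in these libraries, so the line was not checked here against expressed marker genes.

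RUNX1 is the DNA-binding subunit of core-binding factor. With its partner CBFβ it recognises a short sequence written TGTGGT or, in a common variant, TGCGGT, and it acts from promoters and from enhancers, many of which lie in introns. In blood it is needed for the first stem cells and for the maturation of megakaryocytes, where it works beside GATA1, FLI1 and the TAL1 and LMO2 complex. A region inside a gene may act on that gene, on another gene or on none, and peak lists do not tell these apart. Exons and introns were not analysed here.

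A few stretches show what the DNA under such regions looks like. They come from the RefSeq promoter table of GRCh38.p14, which lists 250 bases before to 50 bases after annotated transcript starts, including starts that lie inside a gene. In 38 of the 1128 regions the 6 summits, which are the highest points of the 6 peaks, lay within 100 bp of each other and their mean lay in such a window before the start. Of these 38, 12 held the RUNX letters in the stretch searched, at most 75 bases either side of the mean summit, and 26 did not. The first 5 stretches are the 5 of highest rank that held the letters, chosen for holding them, and the last 2 are the highest that did not. Each runs from 75 bases before to 75 bases after the mean summit. It is cut at the start, or at the upstream edge of the window as for ANO10, where these come first. Bases past these cuts were not searched. All are written 5′ to 3′ on the strand of the start, with TGTGGT or TGCGGT of either strand in capitals.
SMAD3: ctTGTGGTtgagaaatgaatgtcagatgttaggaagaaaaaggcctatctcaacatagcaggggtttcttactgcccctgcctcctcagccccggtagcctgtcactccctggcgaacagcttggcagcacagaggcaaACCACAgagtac
TSPAN14: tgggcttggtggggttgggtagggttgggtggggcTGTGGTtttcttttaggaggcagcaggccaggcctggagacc
TMC5: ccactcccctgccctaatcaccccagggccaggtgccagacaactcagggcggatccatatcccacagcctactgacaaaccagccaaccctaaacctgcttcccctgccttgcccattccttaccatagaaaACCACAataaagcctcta
ELF4: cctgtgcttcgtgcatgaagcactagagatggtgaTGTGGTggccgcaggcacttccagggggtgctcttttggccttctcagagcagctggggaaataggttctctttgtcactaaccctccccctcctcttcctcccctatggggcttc
UVSSA: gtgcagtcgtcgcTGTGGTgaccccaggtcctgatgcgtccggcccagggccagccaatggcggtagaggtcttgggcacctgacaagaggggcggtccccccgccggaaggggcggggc
ANO10: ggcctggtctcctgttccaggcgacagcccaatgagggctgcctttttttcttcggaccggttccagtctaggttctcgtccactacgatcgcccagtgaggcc
RUBCN: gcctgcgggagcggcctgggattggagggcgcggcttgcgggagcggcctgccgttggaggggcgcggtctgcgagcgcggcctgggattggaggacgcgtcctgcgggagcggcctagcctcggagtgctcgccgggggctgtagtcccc
The stretches with the letters lie at chr15:67098456-67098606 (plus strand), chr10:80459208-80459284 (plus strand), chr16:19487919-19488069 (minus strand, before the start of the antisense RNA TMC5-AS1), chrX:130087028-130087178 (minus strand) and chr4:1347088-1347207 (plus strand) on hg38. Those without lie at chr3:43622158-43622261 and chr3:197736921-197737071, both on the minus strand. SMAD3, a transducer of TGF-β signals, holds the letters at both edges of its stretch, 66 bases from the mean summit at the nearer one. ELF4 encodes an ETS transcription factor of blood cells, and there the letters lie 38 bases from the summit. The ANO10 region, whose printed stretch lacked the letters, had a −log10 q of 85.3 and 106 for WT and 57.5 and 111 for 4A. For 4D it had 35.5 and 89.2, with replicates 1 and 2 in that order throughout. The SMAD3 region had 51.1 and 157 for WT, 27.9 and 131 for 4A, and 30.5 and 154 for 4D. Within each line the ANO10 region was thus the higher of the pair in replicate 1 and the lower in replicate 2.

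The letters were counted in the 100 listed 300-base windows that hold the mean summit of one of the 1128 regions. TGTGGT or TGCGGT, searched on both strands, stood in 48 of them (48.0%), against 266 of 753 windows (35.3%) at regions of all 6 lists near gene ends and 6848 of all 34961 listed windows (19.6%). TGTGGT alone stood in 25%, 13.8% and 13.1% of these sets, and TGCGGT alone in 25%, 24.2% and 7.3%. In the 101 bases around the summit, where the table holds them all, the shares lay closer, with the letters in 11 of 68 stretches inside genes (16.2%) and 83 of 587 at gene ends (14.1%), against 6.7% of all windows for 101 bases at the typical place of a summit. Of the 63 matches in the 100 windows, 20 lay within 50 bp of the mean summit, and their median distance from it was 73.5 bp. The median GC content was 69.2% in the windows inside genes, 68.7% at gene ends and 58.7% over all windows, and the part of base composition in these shares was not tested. The ETS letters CCGGAAG or CAGGAAG stood in 34.0%, 30.5% and 21.8% of the windows. GATA letters (AGATAA or TGATAA) were found in 5.0%, 4.91% and 16.3% of the same sets, and AP-1 letters (TGANTCA) in 3.0%, 1.86% and 7.68%, so the windows at gene ends held them about as seldom. No motif contains another, and a match is not a measured site. Windows on chromosome 8 were not analysed here, and the regions far from annotated starts, which are the majority, were not searched.

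The strength of a region was read from the authors' −log10 q, the confidence of its best peak over background. The lists differ in length, with 5346 to 6752 peaks in replicate 1 and 21076 to 25845 in replicate 2, and −log10 q differed with them. Over the 1128 regions its median was 17.9 and 52.8 for WT, 15.2 and 51.7 for 4A, and 10.7 and 46.2 for 4D. The median fold enrichment over background, as the authors give it, was 9.735 and 14.4, 8.8 and 11.3, and 7.97 and 11.8 in the same order. Every region was therefore also given a percentile, its rank by −log10 q among the 3288 regions of the same library, from near 0 for the weakest to near 100 for the strongest. Those 3288 regions are the same in all 6 lists, so list length does not enter the percentile. Read depth is unknown here.

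The strongest of the regions inside genes, by the mean percentile of the 6 libraries, lay in GRIP2, a scaffold protein of glutamate receptors (chr3:14565957-14566777). Its 6 summits lay within 17 bp, and it sat 36.65 kb from the nearer gene end. Its −log10 q was 123.5 and 307 for WT, 167 and 229 for 4A, and 70.8 and 346 for 4D, so that 4A was highest among the replicate 1 libraries and 4D among the replicate 2 libraries. A region in IMPDH2, an enzyme of guanine nucleotide synthesis (chr3:49025282-49026919), followed with 185 and 215 for WT, 128 and 343 for 4A, and 74.4 and 223 for 4D. LMO2, the bridging protein of the TAL1 complex, held a region (chr11:33885044-33886303) with 101.5 and 168 for WT, 104 and 237 for 4A, and 68.4 and 192.5 for 4D. RASGRP2, the exchange factor that switches on RAP1 ahead of integrin activation in platelets, held a region of 4255 bp (chr11:64742308-64746562). Its midpoint lay inside the gene, but its mean summit lay outside, 189 bp beyond the 5′ end and 297 bp upstream of an annotated RASGRP2 start, so the width of the region alone places it inside. That region had −log10 q of 68.4 and 330 for WT, 105 and 234 for 4A, and 34.6 and 260 for 4D.

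TGM2, a transglutaminase that cross-links proteins, held a region (chr20:38143770-38145508) with 101.5 and 290 for WT, 159.9 and 324 for 4A, and 39.9 and 203 for 4D. The TGM2 value was highest in 4A and lowest in 4D within both replicate numbers. The MBD4 region (chr3:129431842-129433141), in the gene of a DNA glycosylase that acts at methylated CpG, was ordered the same way, at 79.4 and 177 for WT, 117 and 198 for 4A, and 55.5 and 169.5 for 4D. The other genes among the 20 highest were DRC10, SESN3, FAM222A, SH3GL2, ACOX3, AZIN2, ECE1, CNIH3, RPS6KA1, NECTIN1, PPCDC and CSMD2, with 2 further regions in UBASH3B. They include enzymes (ACOX3 of peroxisomal fat oxidation, ECE1 of endothelin processing, PPCDC of coenzyme A synthesis), the kinase RSK1 (RPS6KA1) and genes best known from nerve tissue (GRIP2, SH3GL2, CNIH3). Over these 20 the replicate 1 values of a region were below its replicate 2 values within each line.

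**Figure D1:**
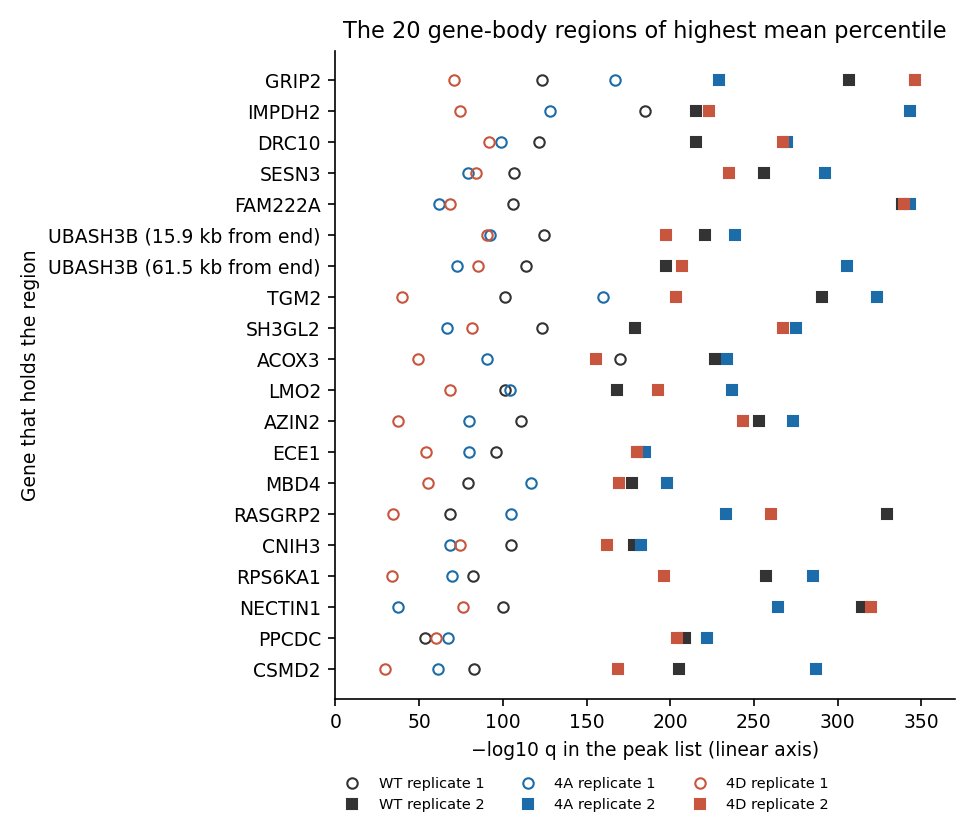
Confidence (−log10 q, linear axis) of the 20 regions inside genes with the highest mean percentile, 1 row per region, named by the gene that holds it, with open circles for replicate 1, filled squares for replicate 2 and colours for WT, 4A and 4D. In the GRIP2 row the values run from 70.8 to 346, and in each line the square lies to the right of the circle.

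The 1128 regions lay in 964 genes, 5.15% of the 18721 protein-coding genes longer than 2 kb. Of these genes, 831 held 1 region, 99 held 2, 24 held 3, 6 held 4 and 2 held 5. UBASH3B held 6 and GSE1 held 7. There were 19 regions inside 2 overlapping genes, which were counted for both. The genes with a region had a median length of 79.6 kb, against 27.3 kb for all. The share of genes with a region was 0.999% for genes of 2 to 10 kb, 2.95% for 10 to 30 kb, 6.5% for 30 to 100 kb, 10.85% for 100 to 300 kb and 15.8% above 300 kb. Per megabase of gene interior the order was the opposite, from 2.71 regions in the shortest class through 1.855, 1.41 and 0.844 to 0.384 in the longest. A region of all 6 lists within 1 kb of its ends was also found at 106 of the 964 genes (11.0%) and at 8.61% of the genes that held none inside.

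UBASH3B, also called STS-1 or TULA-2, encodes a phosphatase that restrains tyrosine kinase signalling in blood cells. Its 6 regions were spread over 158.8 kb and spanned nearly the whole range of strength. The strongest (chr11:122671108-122672203) lay 15.9 kb downstream of the annotated start, with −log10 q of 124 and 221 for WT, 92.4 and 239 for 4A, and 90.7 and 198 for 4D. Another lay 61.5 kb from the 5′ end (chr11:122716538-122717936), at 114 and 197 for WT, 72.5 and 306 for 4A, and 85.2 and 207 for 4D. Their percentiles in the 6 libraries were 98.7 to 99.7 for the former and 98.25 to 99.8 for the latter. The region nearest the 5′ end (chr11:122663483-122664609) had a mean percentile of 89.25, and the other 3 had 54.4, 28.65 and 19.9. In the weakest (chr11:122778935-122779585) the −log10 q was 8.19 and 18.6 for WT, 9.71 and 29.2 for 4A, and 4.17 and 18.3 for 4D.

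GSE1, a subunit of corepressor complexes that remove histone marks, is 506.7 kb long and held 37 regions of the union, of which 7 counted here. The strongest of these (chr16:85381450-85382625) had −log10 q of 21.3 and 122 for WT, 19.97 and 133 for 4A, and 22.5 and 134 for 4D. The widest of all 1128 regions was also in GSE1, at 4602 bp (chr16:85610474-85615075), 48 bp upstream of an annotated GSE1 start by its mean summit, and its 6 summits were up to 1158 bp apart. CTIF, a cap-binding factor of translation, and SSBP3, a partner of the LDB1 adaptor, held 5 regions each. The best in CTIF by mean percentile (75.01) had −log10 q of 61.1 and 45.6 for WT, 23.3 and 83.0 for 4A, and 25.3 and 55.4 for 4D. In SSBP3 the best (mean percentile 89.3) had 39.7 and 138 for WT, 26.7 and 162 for 4A, and 24.6 and 119.8 for 4D, and all 6 summits lay on the same base.

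Genes with 4 regions were IQSEC1, an exchange factor for ARF GTPases, KSR1, a scaffold of the RAF, MEK and ERK cascade, RUNX1 itself, XXYLT1, which extends sugars on Notch, ZFPM1, the GATA1 cofactor FOG1, and ZMIZ1, a transcriptional coregulator. In ZFPM1 the strongest region (chr16:88491168-88492120) had −log10 q of 76.7 and 236 for WT, 33.4 and 191.5 for 4A, and 58.9 and 212 for 4D, so WT was highest and 4A lowest within both numbers. The 85.3 kb of ZFPM1 held 34 regions of the union, more per length than any other gene with 4 or more. In RUNX1 the 4 regions had mean percentiles of 93.5, 78.6, 26.4 and 12.1, the strongest lying 2.78 kb from the upper end of the gene (chr21:35045777-35047268). The transduced copy of RUNX1 could add reads to the gene, which was not tested. Genes with 3 regions included ACTN4, ADARB1, ADCY7, ALOX5AP, CCND3, COL18A1, COL23A1, FAM53A, GNAI2, GRIK4, MBP, NFIB, PDIA5, PITPNM2, POC1A, RFTN1, RIN3, STK10, TESC, TGM2, TRAM2, UBXN11 and ZNF362. Among these, ALOX5AP, of leukotriene synthesis, held the weakest set by mean percentile, at 18.5, 14.9 and 8.72, while MBP had 96.1, 88.2 and 34.3. Neighbouring regions of a gene were a median of 20.2 kb apart, and 60 of 184 gaps were 10 kb or less.

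**Figure D2:**
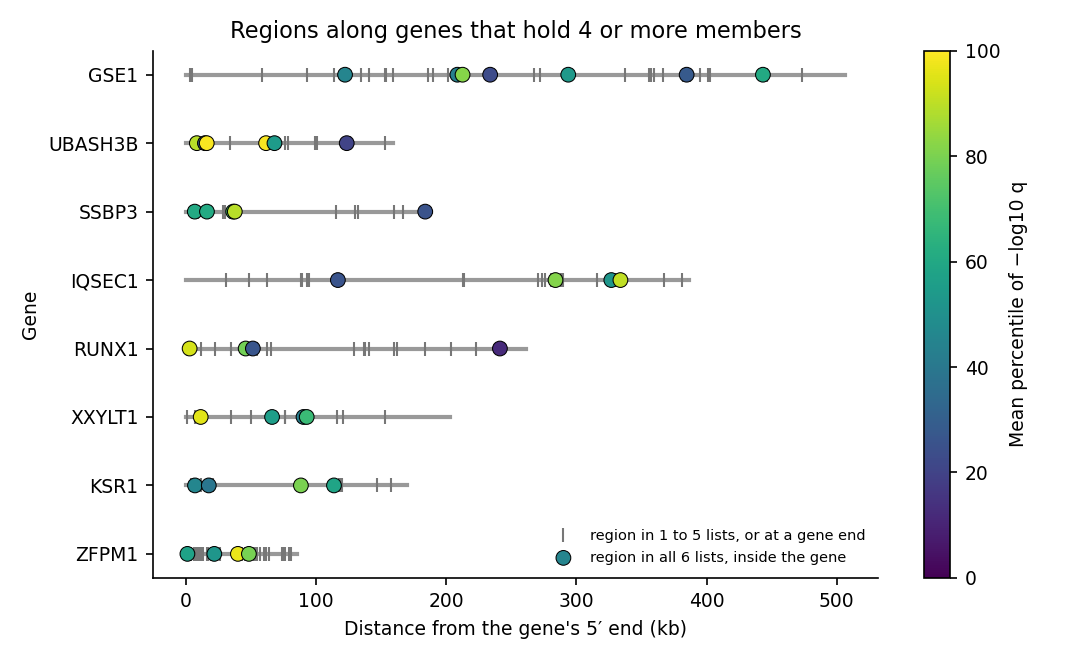
Positions of regions along 8 genes that hold 4 or more of the 1128, as distance in kb from the 5′ end; circles are the regions in all 6 lists inside the gene, coloured by mean percentile, and ticks are the other regions of the union. CTIF and ZMIZ1 are not drawn, since the strand of these genes was not used here. The brightest circles of UBASH3B lie 15.9 and 61.5 kb from its 5′ end, and GSE1 carries 7 circles over 506.7 kb.

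Sets of genes with a shared role were read against genes of the same length, since long genes held regions more often. For each list the expected share is that of all protein-coding genes, weighted to the list's own length classes. The lists were chosen with earlier results of these data known, so a share above the expected one is no independent support. Genes were matched for length alone, not for expression in HEL cells. No test was run on lists, and the values describe these lists alone. The lists overlap, so some genes count on several of them and the shares are not independent of each other. Of 633 different listed genes over 2 kb, 90 held a region. Genes of actin, integrins and adhesion stood highest, with 22 of 70 (31.4%, against 7.46% at these lengths). They were ACTN4, CAPZB, CD44, CORO1C, CTTN, DOCK1, EVL, FERMT3, FLNA, ITGB3, ITGB7, LASP1, LIMS1, PARVB, PECAM1, PXN, TLN1, TLN2, TPM1, TPM4, VASP and WIPF1. Many of their products form the link from integrins to actin filaments, among them talin (TLN1, TLN2), kindlin-3 (FERMT3), paxillin (PXN), filamin (FLNA) and α-actinin-4 (ACTN4). The paxillin region (chr12:120242196-120242822) was the strongest, with −log10 q of 49.7 and 211 for WT, 59.6 and 116 for 4A, and 52.4 and 215 for 4D. ACTN4 held 3, the strongest with 36.5 and 189.5 for WT, 19.3 and 109 for 4A, and 13.8 and 113 for 4D. In ITGB7, the β7 integrin of lymphocytes, the values were 24.8 and 95.4 for WT, 32.1 and 69.0 for 4A, and 18.8 and 85.3 for 4D.

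Small GTPases and their regulators held regions in 16 of 70 genes (22.9%, against 8.7%), namely ARHGAP15, ARHGEF12, IQGAP1, IQSEC1, PREX1, RAB31, RAB37, RALB, RALGDS, RAP1GAP2, RASA3, RASGRP2, RHOH, SIPA1, SIPA1L3 and VAV1. Both sides of the RAP1 switch of platelets are among them: RASGRP2 loads RAP1 with GTP, and RASA3 and the SIPA1 family stimulate its hydrolysis. The RASGRP2 region counts by its midpoint, as its mean summit lay outside the gene. The RASA3 region (chr13:114065055-114066670) had −log10 q of 17.2 and 196 for WT, 11.05 and 171 for 4A, and 13.8 and 148 for 4D. It ranked at percentiles 46.4, 39.55 and 63.5 in replicate 1 and 98.2, 96.7 and 96.6 in replicate 2 (WT, 4A and 4D in that order), so its rank differed more between replicate numbers than between lines. The SIPA1L3 region had 55.5 and 87.9 for WT, 26.9 and 118 for 4A, and 28.4 and 76.8 for 4D. In RALB, a RAS-like GTPase, the region lay 321 bp downstream of an annotated start.

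Tyrosine kinases and phosphatases of blood cells had regions in 11 of 50 genes (22%, against 7.5%): CSK, DUSP10, FER, INPP5D, PTPN18, PTPN6, PTPRC, PTPRJ, SRC, UBASH3A and UBASH3B. INPP5D encodes SHIP1, a lipid phosphatase that stands on the list as a signalling partner. Several products act on SRC-family kinases, as CSK switches them off by phosphorylation and PTPRC, known as CD45, switches them on by removing that phosphate. The PTPN6 region (SHP-1) had −log10 q of 51.1 and 78.6 for WT, 25.9 and 78.3 for 4A, and 30.6 and 58.75 for 4D. In CSK the values were 19.45 and 99.3 for WT, 20.25 and 174 for 4A, and 14.5 and 122 for 4D, with the mean summit 722 bp upstream of an annotated start. PTPRC held a weak region of 291 bp, between 8.76 and 9.02 in replicate 1 and between 15.2 and 23.5 in replicate 2.

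Chromatin modifiers and corepressors held regions in 12 of 62 genes (19.4%, against 8.31%). They included ARID1B, CREBBP, GSE1, HDAC4, HDAC5, JARID2, KAT6B, PRMT1, SIN3A, SIN3B and SMARCA2, and SIN3A, CREBBP and PRMT1 encode known binding partners of RUNX1. SIN3A held a region 256 bp upstream of an annotated start (chr15:75450724-75452250) with −log10 q of 116 and 49.4 for WT, 67.1 and 66.3 for 4A, and 63.4 and 46.2 for 4D. There the replicate 1 libraries placed it at percentiles 97.9 to 99.2 and the replicate 2 libraries at 51.4 to 68.3. A second SIN3A region was the weakest of all 1128 by mean percentile, at 2.58. CREBBP (3.36) and DIDO1 (3.525) held the next weakest, with −log10 q no higher than 10.45 in any list.

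Blood transcription factors with a region were 12 of 73 (16.4%, against 6.9%), among them BACH1, ELF4, ETV6, FLI1, IKZF3, LMO2, NFIA, RUNX1, ZBTB16, ZBTB7A and ZFPM1. The ZBTB16 region, in the gene of the PLZF repressor, had −log10 q of 61.0 and 113 for WT, 52.2 and 145 for 4A, and 33.25 and 81.0 for 4D. Megakaryocyte and platelet genes had 8 of 52 (15.4%, against 5.95%): ETV6, FERMT3, FLI1, FLNA, GP9, ITGB3, TBXAS1 and VPS16. ITGB3, the β subunit of the platelet fibrinogen receptor, held the strongest (chr17:47257213-47258399), with 40.8 and 76.0 for WT, 21.6 and 92.7 for 4A, and 14.1 and 88.0 for 4D. FLI1, an ETS factor of megakaryocytes, held 1 region at 20.6 and 37.0 for WT, 30.7 and 36.1 for 4A, and 26.9 and 30.5 for 4D. TBXAS1, which makes thromboxane, held 2 regions, with mean percentiles of 53.8 and 53.7. Of the 8 megakaryocyte and platelet genes, FERMT3, FLNA and ITGB3 also count on the actin, integrin and adhesion list. ETV6 and FLI1 also count among the blood transcription factors, and GP9 among the RUNX1 targets from the literature.

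Erythroid genes had 1 of 41 (2.44%, against 4.93%), DMTN, which encodes the membrane skeleton protein dematin, with −log10 q of 14.0 and 60.7 for WT, 11.55 and 23.7 for 4A, and 14.05 and 62.1 for 4D. RUNX1 targets from the literature had 5 of 37 (13.5%, against 5.45%), namely CCND3, GP9, RAB31, TNFRSF8 and UBASH3B. All of these but TNFRSF8 also count on another list. CCND3, the gene of cyclin D3, held 3 regions, the strongest (chr6:41935910-41936792) at 37.5 and 103 for WT, 20.6 and 120.2 for 4A, and 13.8 and 94.6 for 4D. TNFRSF8, which encodes CD30, held 1 at 31.0 and 54.1 for WT, 20.7 and 46.9 for 4A, and 29.05 and 68.6 for 4D. Cytokine receptor and JAK-STAT genes had 5 of 48 (10.4%, against 5.97%): GRB2, PTPN6, PTPRC, SH2B3 and SOCS2. The stronger SH2B3 region, in the gene of the LNK adaptor that limits thrombopoietin signalling, had 44.4 and 124 for WT, 18.3 and 114 for 4A, and 20.03 and 93.2 for 4D.

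Lists of other cell types and of housekeeping genes were near or below their length-matched shares. Lymphoid genes had 2 of 37 (CD247 and CD28; 5.41%, against 4.7%) and cell cycle genes 2 of 43 (CCND3 and CDC20; 4.65%, against 3.79%). No gene of 31 on the myeloid list and none of 50 ribosomal protein genes held a region, against 3.49% and 1.31% at these lengths. Long genes of nerve and other tissues outside the blood had 5 of 44 (COL1A1, DPP6, NTM, OPCML and TG, 11.4%, against 13.4%). The TG regions also lay inside the overlapping gene SLA, so they cannot be assigned to TG alone. The OPCML region lay farthest of all from a gene end, at 404.4 kb, and its −log10 q was 27.3 and 69.7 for WT, 19.7 and 87.1 for 4A, and 25.2 and 63.0 for 4D. The next farthest lay in SLC24A2 (394.4 kb), INPP4B (379.3 kb), MARCHF1 (371.2 kb) and KAZN (339.8 kb).

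**Figure D3:**
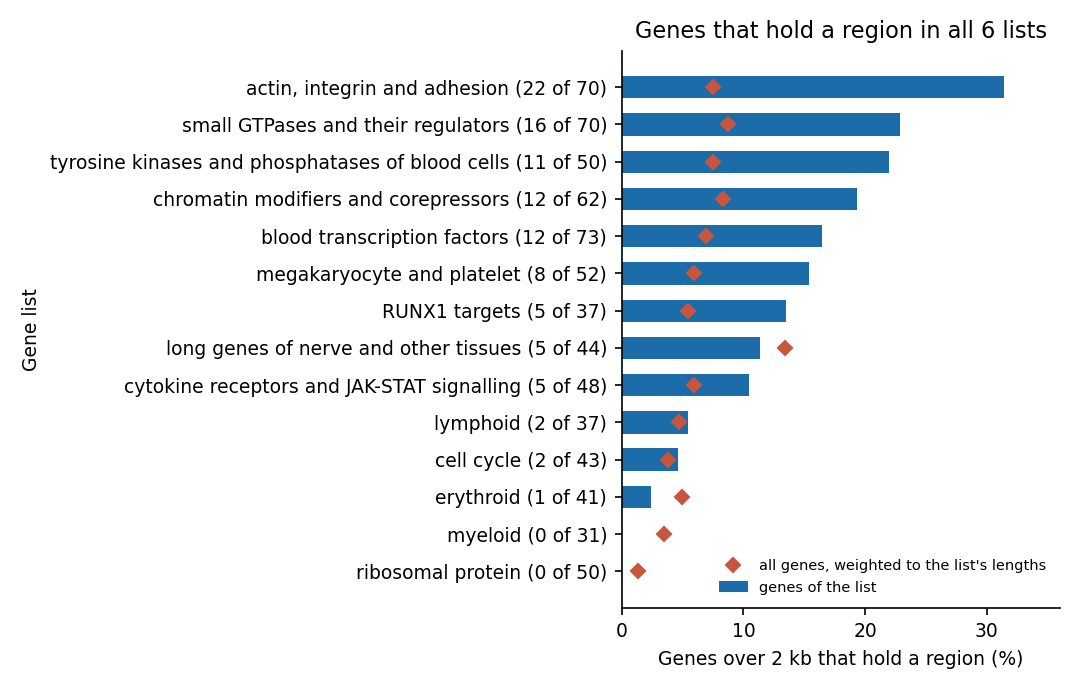
Share of genes over 2 kb that hold at least 1 of the 1128 regions, for each of 14 gene lists (bars, with the counts beside the names), and the share over all protein-coding genes weighted to the same lengths (diamonds). The actin, integrin and adhesion list reaches 31.4% with its diamond at 7.46%, and the bars of the erythroid, myeloid, ribosomal protein and long non-blood lists end below their diamonds. The lists overlap and were chosen with earlier results of these data known.

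Regions inside genes made up a smaller share of the union the more lists held them. They were 44.4% of the 11523 regions in 1 list, then 42.6%, 40.1%, 37.8% and 36.05% of those in 2 to 5 lists, and 34.3% of the 3288 in all 6 (Wilson 95% interval 32.7 to 35.95%, which covers counting error alone). With the same regions moved by 100 kb to either side the share inside genes was 52.7% to 55.4%. Over the same steps the share within 1 kb of a gene end went from 18.4% to 42.15%. Among regions inside genes, 700 were held by exactly 5 lists, and the list that lacked them was 4D replicate 1 for 338, 4A replicate 1 for 239 and WT replicate 1 for 110, while the replicate 2 lists lacked 1 (WT), 7 (4A) and 5 (4D). A missing call shows that a peak was not called at that library's depth, not that the protein was absent. The 1 kb limit was close to 3 members on the inside, in RASGRP2 (1.02 kb), UNC5CL (1.035 kb) and a region shared by CDH23 and VSIR (1.04 kb), and just outside it lay regions of SLC39A13 (0.993 kb), PDE8A (0.992 kb) and SRRM2 (0.974 kb).

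**Figure D4:**
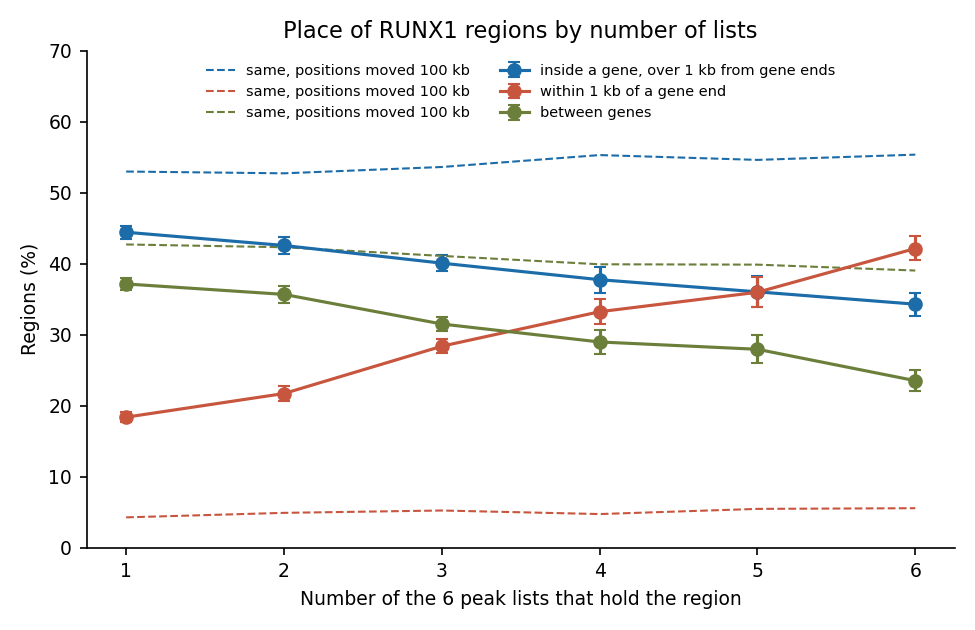
Share of union regions inside genes, within 1 kb of gene ends and between genes, by the number of lists that hold a region, with Wilson 95% intervals; dashed lines show the same regions moved by 100 kb. The share inside genes goes from 44.4% to 34.3%, under its dashed line throughout, while the share at gene ends goes from 18.4% to 42.15%.

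Within genes the median distance to the nearer end of a protein-coding gene was 16.0 kb, with quartiles of 5.77 and 37.8 kb. For the 904 regions whose gene has a strand in the promoter table, 28.8% lay in the first 25% of the gene's length, where 23.6% would follow from the length open to them, and 22.1% in the last 25%. The first 10 kb held 24.6% and the last 10 kb 17.5%, against 20.2% by length for either. Regions in 1 list had 28.9% in that first part and 21.1% in the last.

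Annotated transcript starts, most of them inside the gene as for shorter isoforms, were near some of the regions. Of 1076 regions on chromosomes that the promoter table covers, 181 (16.8%) had their mean summit within 1 kb of an annotated start. The share was 8.27% for regions in 1 list. With the same 1076 regions moved by 100 kb, it was 1.58% of the 1329 moved positions that still counted as inside genes. The start lay inside the gene that holds the region in 178 cases, at a gene end in 2 and outside the gene in 1, and 12 of the starts were within 1 kb of a gene end. It belonged to the gene that holds the region in 144 cases and to a long non-coding RNA in 37. The summit lay upstream of the start in 112 and downstream in 69. Regions near a start were wider, with a median of 1006 bp against 771 bp. Their median percentile was lower in 5 of 6 libraries, at 48.4 against 57.1 for WT replicate 2 and 49.9 against 59.8 for 4D replicate 2, while in WT replicate 1 it was higher, at 51.6 against 48.0. Ends of non-coding genes lay within 1 kb of 94 regions (8.33%), of which 80 were long non-coding RNAs and 7 microRNAs.

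The strongest region at a non-coding gene end was in SESN3, a stress-responsive restraint on growth signalling (chr11:95230346-95231886), 930 bp from an end of LOC100129203. It had −log10 q of 107 and 256 for WT, 79.35 and 292 for 4A, and 83.9 and 235 for 4D. Others among the 8 highest included those in XXYLT1, TCF7L1, GRHL3, FOCAD, EXOSC4 and PIK3CD. The GRHL3 region had 45.5 and 218 for WT, 53.8 and 176 for 4A, and 13.6 and 258 for 4D, so 4D was lowest in replicate 1 and highest in replicate 2. Regions overlapped the hairpins of MIR760 in BCAR3, MIR4777 in ARMC9, MIR639 in a stretch shared by DNAJB1 and TECR, and MIR3190 and MIR3191 in BBC3, the gene of the pro-apoptotic protein PUMA.

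Among the regions of all 6 lists, those inside genes ranked above those at gene ends in most libraries. Their median percentile was 48.6 and 55.5 for WT, 55.2 and 55.9 for 4A, and 50.6 and 57.2 for 4D, against 50.5 and 40.4, 42.6 and 42.9, and 48.7 and 39.8 at gene ends. The difference was 12.6 to 17.4 points in 4 libraries, 1.95 for 4D replicate 1, and of the opposite sign (−1.87) in WT replicate 1. Regions between genes, at 52.0 to 58.2, were close to those inside genes. The order depended in part on the measure. Ranked by fold enrichment, the median inside genes was below that at gene ends in WT replicate 1 (46.55 against 52.1) and 4D replicate 1 (48.8 against 50.5). It was above that at gene ends in the other libraries. The regions inside genes were also narrower than those at gene ends, with a median of 812 bp against 966 bp. Their 6 summits lay within 100 bp in 576 of 1128 (51.1%), against 38.0% at gene ends and 55.6% between genes.

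**Figure D5:**
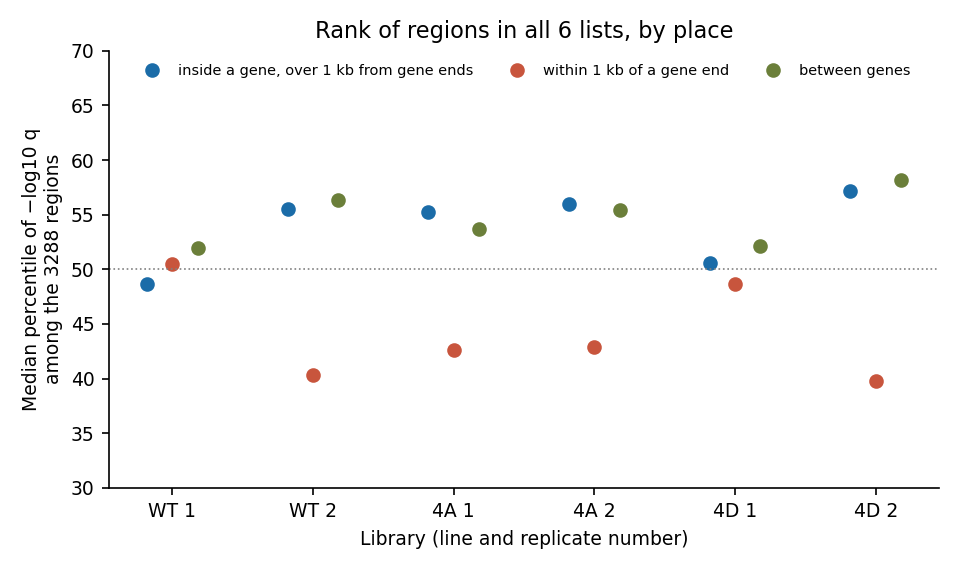
Median percentile of −log10 q among the 3288 regions of all 6 lists, by library, for regions inside genes, at gene ends and between genes; the dotted line marks the 50th percentile. The points for regions inside genes lie between 48.6 and 57.2, above those for gene ends in 5 of 6 libraries.

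The 3 forms of RUNX1 were compared by the share of each list inside genes and by the percentile of the 1128 regions. The share of peaks with their summit inside genes was 34.4% and 40.4% for WT, 37.1% and 39.0% for 4A, and 36.6% and 39.7% for 4D. The means of 37.4% ± 4.23, 38.1% ± 1.36 and 38.2% ± 2.22 (SD, n = 2 each) differed by at most 0.779 points, less than the spread between replicates (exact permutation p = 1.0). The median percentile of the 1128 regions averaged 52.1 ± 4.86 over the WT libraries, 55.6 ± 0.511 over those of 4A and 53.9 ± 4.63 over those of 4D (SD, n = 2 each). These means differed by at most 3.5 points, with an exact permutation p = 0.733 and an adjusted p of 1.0 over the 2 comparisons. Both tests permute the 6 libraries over the lines without a direction, and the smallest p they can give is 0.0667. A difference between the forms was not detected in either measure, which does not show that the forms bind alike.

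Libraries of the same replicate number resembled each other more than libraries of the same line. Over the 1128 regions the Spearman correlation of −log10 q was 0.60 to 0.90 between libraries of the same number, 0.52 to 0.57 between the replicates of a line and 0.52 to 0.55 where neither was shared. It is given as a description across regions, which share libraries and background. The median difference in percentile was 7.31 to 15.3 points for the same number and 16.7 to 17.9 points for the same line. The labels do not say what a replicate number stands for beyond a biological replicate.

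Shifts of 20 percentile points or more between the numbers, the same way in all 3 lines, were counted after these values were seen. Of the 1128 regions, 96 (8.51%) ranked higher in replicate 2 and 59 (5.23%) in replicate 1, against 7.27% and 7.39% of all 3288 regions. At gene ends the balance was the opposite, with 83 (5.99%) and 150 (10.8%) of 1386. The 96 regions had a median width of 1084 bp and the 59 a median of 600 bp. The region with the widest such gap lay in PIP5K1C, a kinase that makes the lipid through which talin is recruited, with percentiles of 13.02 and 85.5 for WT, 14.9 and 81.0 for 4A, and 18.3 and 81.1 for 4D. In the opposite direction stood a region of WNT9A, a secreted signalling protein, with 87.55 and 11.0 for WT, 85.3 and 4.58 for 4A, and 85.2 and 26.9 for 4D.

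Between the forms, regions were counted as displaced when the percentile differed by 20 points or more in the same direction within both replicate numbers. For 4A against WT, 14 regions (1.24%) were higher in 4A and 16 (1.42%) higher in WT, against 1.06% and 1.16% of all 3288 regions. For 4D against WT, 21 (1.86%) were higher in 4D and 19 (1.68%) in WT, against 1.13% and 1.34%. For 4D against 4A, 26 (2.3%) were higher in 4D and 35 (3.1%) in 4A, against 2.37% and 2.4%. The 3 comparisons share libraries, and 110 regions were displaced in at least 1. The 3288 regions include the 1128, which draws the shares together. The widest gaps were for regions higher in 4D than in WT (1.86% against 1.13%) and higher in 4A than in 4D (3.1% against 2.4%). All shares are given without a test. With 2 libraries per form, single regions were not tested.

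The regions with the largest displacement, taking the smaller of the differences in the replicate numbers, are described by their percentiles. GRAP2, an adaptor of T cells and platelets, ranked higher in 4A than in WT, at 46.5 and 70.5 against 4.75 and 33.4, with 5.95 and 51.3 for 4D. PLEKHG3 (81.6 and 66.6 against 41.9 and 34.1) and TSPAN11 (45.5 and 75.4 against 9.67 and 43.1) were ordered likewise. PDE11A, a cyclic nucleotide phosphodiesterase, ranked higher in WT than in 4A, at 65.9 and 77.25 against 27.6 and 41.6. So did GNAI2, an inhibitory G protein subunit (40.4 and 47.5 against 5.28 and 13.6), and STARD8, a GTPase-activating protein (35.8 and 66.4 against 3.42 and 26.9).

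Higher in 4D than in WT were MAPK4 (54.6 and 85.7 against 8.61 and 48.0), PDE8A (60.1 and 64.4 against 15.5 and 35.9) and EFNB2, the ligand ephrin-B2 (84.8 and 80.4 against 29.8 and 52.3). In replicate 1 such gaps in rank stood for few units of −log10 q. The 4D value there was 11.65 against 6.56 in WT for MAPK4, 12.9 against 8.46 for PDE8A and 23.05 against 12.4 for EFNB2. Higher in WT than in 4D were GRIN2D (58.9 and 53.5 against 18.3 and 17.0), VAV1, an exchange factor for RAC (76.1 and 61.6 against 40.6 and 29.3), and FDX1 (37.3 and 66.0 against 2.07 and 35.4). The FDX1 region was also far higher in 4A, at 93.7 and 63.7. For VAV1 the −log10 q was 31.0 and 58.2 for WT, 8.93 and 74.1 for 4A, and 8.76 and 24.7 for 4D, so 4A stood with 4D in replicate 1 and above WT in replicate 2.

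TLN2, one of the talins, had the largest gap between 4D and 4A, taking the smaller of the differences in the replicate numbers. It ranked at 93.3 and 95.1 for 4D against 36.4 and 24.5 for 4A, with 54.2 and 70.5 for WT. Its −log10 q was 19.7 and 69.96 for WT, 10.3 and 26.5 for 4A, and 32.8 and 132 for 4D. Higher in 4D than in 4A were also MAPK4 and STARD8. In the other direction PAG1, the adaptor that brings CSK to the membrane, ranked at 82.7 and 62.6 for 4A against 31.6 and 2.51 for 4D. DNAJB6 (53.9 and 50.6 against 10.4 and 11.1) and TTLL10 (82.3 and 71.55 against 30.95 and 35.0) followed. These regions were picked for their displacement, so the values describe them and support no difference between the forms.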

How the data were processed

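The data are CUT&RUN peak lists of HA-tagged RUNX1 in HEL cells, 1 per library of WT, 4A and 4D (2 replicates each). Per the submitters' processing notes reads were handled on hg38 with MACS2 2.2.7.1, Bowtie2 2.4.2, cutadapt 3.4, deepTools 3.5.1 and Picard 2.25.6, and the series design names the EV line as background. Read filters and any pooling of EV replicates are not given in the sources used here. Peaks were called per library. For each peak the authors deposited an integer score (not used), a fold enrichment (a linear ratio), the −log10 of a p-value (not used) and of a q-value, and a summit offset. The lowest −log10 q of a list was 1.30 to 1.41. Depth per library is unknown, and replicates are biological per the labels.

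Peaks were merged with pandas 2.3.3 under Python 3.11.15. A region's value in a library is that of its peak with the highest −log10 q. Genes and starts came from RefSeq tables of GRCh38.p14, in which the promoter table holds no start on chromosome 8 and gave a strand for the genes of 904 of the 1128 regions. The design asked for motifs in 200-base windows around summits. No genome was used here, so motifs were counted in listed promoter windows. Lines were compared by exact permutation of the 6 libraries with Benjamini-Hochberg adjustment. Merging, placing and the count of displaced regions were tested on simulated data. The permutation was tested on values set by hand, and the adjustment was not tested. The regions, the 14 gene lists and the rule for named genes were chosen with earlier results of these data known. Named genes are the 20 highest by mean percentile, all with 3 or more regions, list genes (values for up to 4 a list), the 3 most displaced per pair of lines and direction, those nearest the 1 kb limit, the 8 highest at non-coding gene ends, the 5 farthest, the 5 widest and the 3 lowest. A few genes that the rule names are not reported here. PIP5K1C and WNT9A were named after their values were seen. Alternatives were other merging, q and distance limits, another strength measure, another displacement size, leaving out libraries and the replicate block.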

Additional observations from a re-analysis of the deposited data

How the results depend on the processing

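With each alternative run, the number of regions inside genes stayed within 1.5 times of 1128: it was 1057 with peaks cut to 100 bp either side of the summit, 866 with a −log10 q of at least 5, 1238 and 1017 with limits of 0.5 and 2 kb from gene ends, 1177 with genes of every type and 1130 by mean summit. Without 1 library each it was 1127 to 1466, the highest without 4D replicate 1. The 90 list genes holding a region became 78 to 106. The share of regions in all 6 lists that lie inside genes followed the distance limit, at 37.65% for 0.5 kb and 30.9% for 2 kb. The 110 displaced regions became 378 at 10 points and 25 at 30 points, which follows from the limit itself. The range of line means was 1.07 to 3.77 points for the share inside genes and 1.68 to 6.94 points for the percentile when 1 library was left out (exact permutation p of 0.4 to 1.0 and 0.267 to 1.0). With lines permuted within replicate numbers (replicate block, smallest exact p 0.167) the exact permutation p was 1.0 and 0.5, so the block changed no call. Deviations of same-numbered libraries from their line means, in the logarithm of fold enrichment, correlated at 0.59 to 0.74 across all 3288 regions of the 6 lists. This is a hint from the data that the numbers share something, which the labels do not state. Peak lists hold no read depth, so a weaker rank cannot be told apart from a thinner library for single regions.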
